A study of Mus musculus with 2 samples.

Results

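The genes described here are Igha, Igkc, Ighg2c, Ighg2b, Ighm, Iglc2, Jchain and Mzb1, 8 of the 32286 features counted in single-cell RNA libraries from the mouse eye. They are the transcripts that a plasma cell makes in bulk: heavy and light chain constant regions of antibodies, the joining chain that links antibody units, and a chaperone of the secretory route. They were chosen by name because earlier results of these same libraries had shown them, so the difference between libraries is given as a description and not as a finding. Tissue labelled optic cup, from Abca4KO mice, was dissociated with papain and captured in droplets with 10x Genomics 3′ chemistry, and every animal in both groups lacks Abca4, a photoreceptor transporter. Per the series text, a vector was injected under the retina of each eye at 2 months of age and tissue was collected 4 months later. The labels of the samples state 4 months of age, which disagrees. One group holds the library labelled GFP (AAV2.8-GFP, the control vector) and the other the library labelled sponge (AAV2.8-Sponge.mir181, a transcript meant to bind the microRNAs miR-181a and miR-181b), given to the opposite eye. Each group is 1 library, no source used here gives the number of mice in it, and cells are not assigned to mice. No test between groups is therefore possible, and every interval below is a 95% interval of counting error alone.

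An antibody is built from heavy and light chains, and a B cell joins variable segments to a constant region so that each cell and its descendants carry 1 functional pair. The heavy constant gene sets the class: Ighm for IgM, Igha for IgA, Ighg2b and Ighg2c for subclasses of IgG. Light chains use either the kappa constant gene Igkc or a lambda gene such as Iglc2. When a B cell matures into a plasma cell it leaves the cell cycle, widens its endoplasmic reticulum and devotes much of its messenger RNA to these chains, while Mzb1 helps to fold them. The protein of Jchain bonds to the tail of IgA and IgM, and the resulting polymers can be carried across epithelia by the receptor encoded by Pigr. In the eye, IgA plasma cells are known from the lacrimal gland and conjunctiva, and the neural retina normally holds very few lymphocytes.

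The last 30 coding bases of the secreted constant regions are shown because they carry the residues that set how the chains pair. They were read from GENCODE M21 transcripts on mm10, 5′ to 3′ on the coding strand, with cysteine codons in capitals.
Igha (minus strand, chr12:113258771-113258800): atcatgtcagagggagatggcatcTGCtac
Ighm (minus strand, chr12:113420870-113420899): atcatgtctgacacaggcggcaccTGCtat
Ighg2c (minus strand, chr12:113287392-113287421): actaagaccatctcccggtctctgggtaaa
Ighg2b (minus strand, chr12:113306392-113306421): aagaagaccatctcccggtctccgggtaaa
Igkc (plus strand, chr6:70726725-70726754): attgtcaagagcttcaacaggaatgagTGT
Iglc1 (minus strand, chr16:19061755-19061784): gagaagagtttgtcccgtgctgacTGTtcc
Iglc2 (minus strand, chr16:19198539-19198568): gagaagagtctgtctcctgcagaaTGTctc
Iglc3 (minus strand, chr16:19065368-19065397): gagaagagtctgtctcctgcagaaTGTctc
Igha and Ighm both end in a cysteine followed by tyrosine, the tail to which the joining chain is known to bond, and the 2 Ighg tails have no cysteine in this window. The ends of Iglc2 and Iglc3 are identical base for base, and their coding sequences agree at 96.2% of aligned positions, so UMIs of these 2 genes may be split by the counting and are uncertain. Ighg2b and Ighg2c agree at 85.9% of aligned positions, and 5.26% of their 50-base windows are shared. Igha and Ighm agree at 51.8% and share no such window.

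The files list 39461 barcodes and 123040365 unique molecular identifiers (UMIs, each a captured transcript molecule) for the library labelled GFP. For the library labelled sponge they list 23267 barcodes and 132067896 UMIs. Below, "under the GFP label" and "under the sponge label" stand for these libraries. After a filter on genes, UMIs and mitochondrial share, 39285 and 23200 cells were kept, with a median of 2415 and 2980.5 UMIs. The eGFP sequence went against the labels, with 12 UMIs under the GFP label and 5486 under the sponge label, and none of them lay in the antibody-rich barcodes described below. Abca4 had 8878 and 7405 UMIs, and whether the counted 3′ ends lie outside the deleted part was not stated, so this does not check the genotype. The libraries shared 290 barcode sequences, none of which was antibody-rich. Clusters 0 and 19 resembled rods and cones by their markers, and microglia, glia, vessel, pigment and corneal classes were found as well, so the tissue was wider than the neural retina. No cluster was led by B cell or plasma cell markers.

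All 8 genes were counted in at least 1 library, and the library labelled sponge held 103252 of their UMIs against 8387 under the GFP label. Igkc, the kappa constant region (ENSMUSG00000076609, chr6:70726435-70726966), had 3812 UMIs under the GFP label and 76560 under the sponge label. Over kept cells this was 31.1 UMIs per 1000000 UMIs (CPM, interval 30.1 to 32.1) against 581 CPM (interval 577 to 585), a log2 ratio of 4.23 (interval 4.18 to 4.27). Jchain (ENSMUSG00000067149, chr5:88519809-88527891) had 2475 and 11907 UMIs, and its log2 ratio was 2.16 (interval 2.10 to 2.23). Igha, the constant region of IgA (ENSMUSG00000095079, chr12:113254830-113260236), had 904 and 9158 UMIs, with a log2 ratio of 3.24 (interval 3.14 to 3.34). All 3 were thus several-fold higher under the sponge label.

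The heavy chain classes divided between the libraries. Ighg2c, a constant region of IgG (ENSMUSG00000076612, chr12:113285325-113288932), had 0 UMIs under the GFP label and 4698 under the sponge label, at least 1459-fold higher against a floor of 3 counts. Ighm, the constant region of IgM (ENSMUSG00000076617, chr12:113418558-113422730), went the other way, with 1079 and 424 UMIs and a log2 ratio of -1.45 (interval -1.62 to -1.29). Without the barcode with the most member UMIs in each library it was -0.75. Ighg2b (ENSMUSG00000076613, chr12:113302965-113307933) had 4 and 2 UMIs and supports no ratio. The lambda constant gene Iglc2 (ENSMUSG00000076937, chr16:19198396-19200351) had 71 and 165 UMIs, and the chaperone gene Mzb1 (ENSMUSG00000024353, on chromosome 18) had 42 and 338. Of the 7 members with at least 20 UMIs, 6 were at least 2-fold higher under the sponge label, where 3.48% of 22929 features were. The other, Ighm, was at least 2-fold lower, as were 2.73% of features. The members were chosen on this contrast, so nothing is read from these counts. The median log2 ratio over all features was 0.03. Among constant genes outside the 8, Ighg1 and Ighg3 had 0 UMIs in both libraries, Ighd had 24 and 27, and Ighe had 0 and 1.

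Summed over the 8 genes, most of this RNA sat in a handful of barcodes. It took 5 barcodes under the GFP label, and 3 under the sponge label, to hold 50% of the member UMIs. A barcode is called antibody-rich here when it held at least 20 member UMIs and these were at least 1% of its own UMIs. Each library had 7 such barcodes, which was 0.0178% of kept cells (interval 0.00716 to 0.0367%) under the GFP label and 0.0302% (interval 0.0121 to 0.0622%) under the sponge label. They held 5617 of 8379 member UMIs in kept cells under the GFP label and 98007 of 103246 under the sponge label. The remainder outside them was 33.0% (interval 32.0 to 34.0%) and 5.07% (interval 4.94 to 5.21%). Single genes differed from the sum. Outside these barcodes lay 11.3% and 3.05% of Igkc UMIs, 18.4% and 6.69% of Igha, 69.8% and 13.4% of Jchain, and 64.3% and 6.51% of Mzb1. For Ighm it was 36.2% under the GFP label and all 423 UMIs under the sponge label. Jchain alone made up 1726 of the 2762 UMIs outside under the GFP label. Hence 90% of the member UMIs needed 6 barcodes under the sponge label but 1624 under the GFP label.

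**Figure D1:**
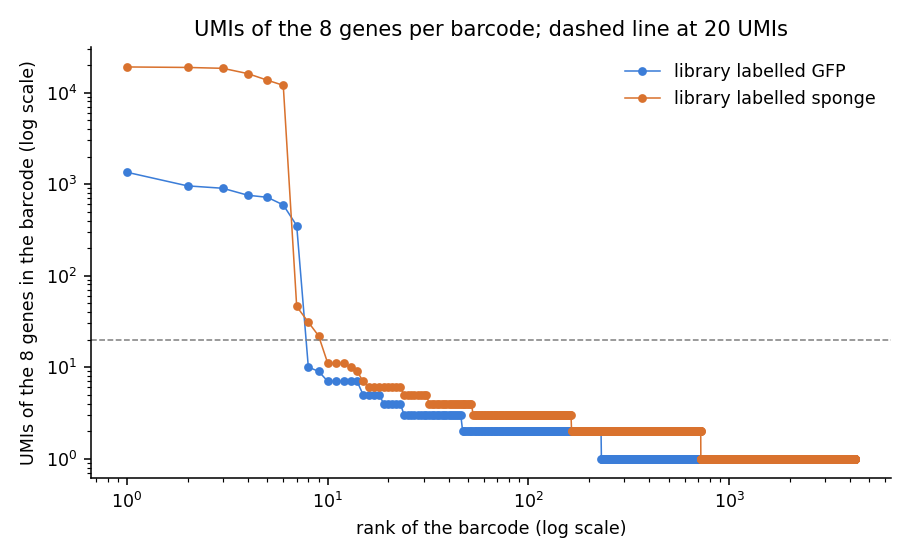
Member UMIs in each kept barcode (vertical, log scale) against the rank of the barcode (horizontal, log scale) in the library labelled GFP (blue) and the one labelled sponge (orange), with the 20-UMI limit dashed. In orange 6 barcodes lie at 11990 or more and the seventh at 46, and in blue 7 lie at 352 or more and the next at 10.

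The step between these barcodes and the rest was wide under the GFP label, where the last inside held 352 member UMIs and the first outside 10. Under the sponge label the sixth held 11990, the seventh 46 and the next, left out because its member UMIs were 0.324% of its total, 31. The seventh stood apart from the others. It had 919 UMIs in all, with 39 of Igkc, 6 of Ighg2c, 1 of Jchain and none of a plasma cell marker. The other 6 are called the leading 6 below.

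Barcodes are named by library label and by rank in member UMIs. The 7 barcodes under the GFP label held 1345, 956, 900, 755, 717, 592 and 352 member UMIs out of 2665 to 8047 UMIs in all. These were 9.38% to 29.6% of each barcode's UMIs. The leading 6 under the sponge label held 19039, 18803, 18397, 16094, 13638 and 11990 member UMIs, with totals of 19838 to 32634. Their share was 55.0% to 64.7%, so the leading 6 lay above the 7 under the GFP label in member UMIs, total UMIs and share. Sponge 7, with 46 member UMIs, 919 in all and a share of 5.01%, lay below those 7 in each. The barcodes were chosen by member UMIs and share and are not replicates of a group, so nothing is read from this about the groups. Mitochondrial transcripts made up 1.60% to 2.41% of UMIs in the leading 6 and 3.48% to 8.86% in the 7 under the GFP label, against library medians of 8.87% and 11.2%. These are shares of all UMIs, members included, so a high member share lowers them. They were not recomputed without the members.

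**Figure D2:**
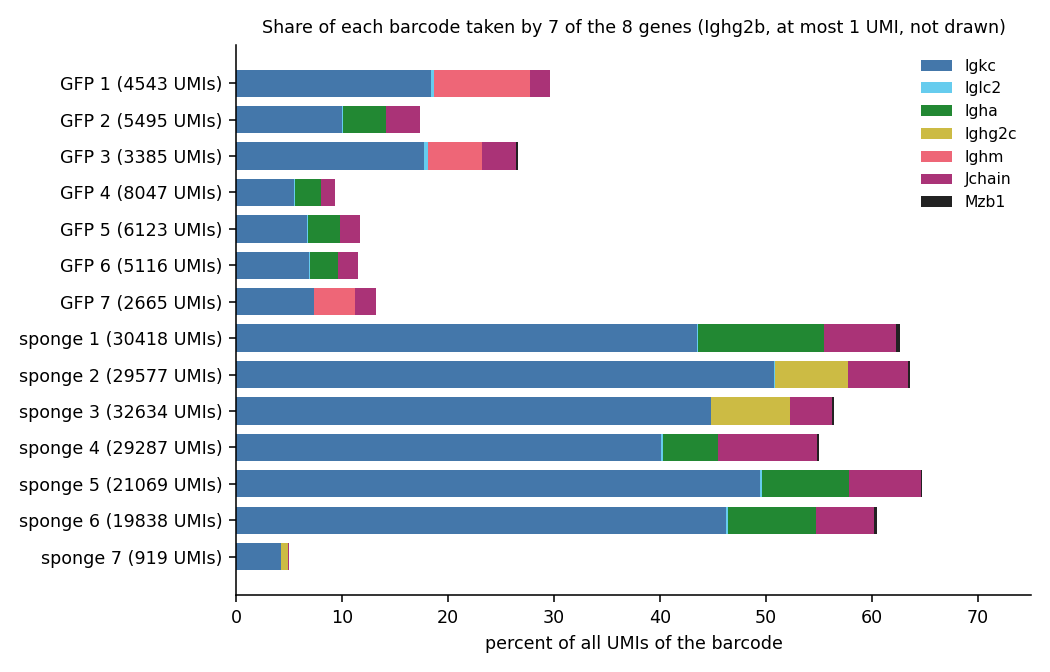
Percent of all UMIs of each antibody-rich barcode (horizontal) taken by 7 of the genes (colours), 1 bar per barcode with its total UMIs. Igkc is the widest segment in all 14 bars, 1 leading heavy constant gene accompanies it in each, and the first 6 bars labelled sponge reach 55.0% to 64.7%.

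Each barcode had 1 leading heavy constant gene. Igha led in 4 barcodes under the GFP label, with 221, 197, 183 and 135 UMIs in GFP 2, GFP 4, GFP 5 and GFP 6, and Ighm was 0 in all 4 of them. Ighm led in the other 3, with 412, 173 and 102 UMIs in GFP 1, GFP 3 and GFP 7, and Igha was 0 in those. The leading gene held at least 99.3% of the heavy constant UMIs in each of the 7. Igha led in 4 under the sponge label, with 3610, 1518, 1732 and 1658 UMIs in sponge 1, 4, 5 and 6. Ighg2c led in sponge 2 and sponge 3, with 2020 and 2418 UMIs beside 16 and 11 of Igha. It was also the only heavy constant gene in sponge 7, with 6 UMIs. No UMI of Ighm or Ighd was counted in any of the 7. IgA barcodes were thus found in both libraries, IgM barcodes under the GFP label and IgG2c barcodes under the sponge label. This covers the 7 barcodes under the GFP label and the leading 6 under the sponge label.

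The light chain was kappa throughout. Igkc held 91.9% to 98.5% of light constant UMIs under the GFP label and 99.6% to 99.9% in the leading 6 under the sponge label. The lower values belonged to the 4 IgA barcodes under the GFP label, which also carried 21 to 40 UMIs of Iglc1, a lambda constant gene, against 0 to 4 in the 3 IgM barcodes. Iglc2 was present at 1 to 13 UMIs under the GFP label and at 6 to 36 in the leading 6 under the sponge label. Igkc exceeded the leading heavy gene in all 14, by a UMI ratio of 1.91 to 3.46 under the GFP label and 3.66 to 7.74 in those 6. These are 3′ UMI counts, which are not scaled by transcript length.

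Jchain accompanied every class. It had 97 to 178 UMIs in the 4 IgA barcodes and 54 to 109 in the 3 IgM barcodes under the GFP label. The IgA barcodes under the sponge label held 1088 to 2744, and the IgG2c barcodes, whose heavy chain lacks the tail cysteine shown above, held 1678 and 1295. Per 100 UMIs of heavy chain, Jchain under the sponge label was 57.4 to 181 for IgA and 82.4 and 53.3 for IgG2c, so the IgG2c values lay within or just under the IgA range. Mzb1 was counted at 0 to 6 UMIs under the GFP label and at 20 to 99 in those 6.

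Variable segments were shared within groups of barcodes, and the leading ones differed between the libraries. The 4 IgA barcodes under the GFP label all led with the kappa segment Igkv12-44, at 34, 28, 22 and 23 UMIs, and with the heavy segment Ighv1-66, at 9, 8, 8 and 8. No second kappa segment was counted in them. Of the IgM barcodes, GFP 1 led with Igkv4-57 (23 UMIs) and Ighv1-7 (4), GFP 3 with Igkv4-53 (7) and Ighv14-3 (3), and GFP 7 had no kappa segment. Under the sponge label, 5 of the 6 led with Igkv1-135, at 96, 111, 123, 84 and 64 UMIs, across both IgA and IgG2c barcodes. The exception, sponge 4, led with Igkv6-23 at 200 UMIs. Ighv1-55 was the leading heavy segment in the same 5, at 7 to 16 UMIs, followed by Ighv1-74 or Ighv1-59. Segments of a family are similar in sequence and a rearranged segment may differ from the reference, so a mix of Ighv1 names within a barcode cannot be told apart from 1 rearranged segment split by the counting.

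Most segment UMIs lay in the antibody-rich barcodes, more so under the sponge label. They held 97.2% of the 739 kappa segment UMIs and 91.7% of the 144 heavy segment UMIs there. The shares under the GFP label were 84.0% of 163 and 65.3% of 72, so more of the heavy segment UMIs lay in other cells there. The lambda segment Iglv1 had 524 of its 528 UMIs in the antibody-rich barcodes under the sponge label, 12 to 205 in each of the leading 6. The lambda constant genes Iglc1, Iglc3 and Iglc2 had 4, 40 and 160 UMIs there in all. Thus lambda segment UMIs and kappa constant UMIs stood in the same barcodes.

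The 4 IgA barcodes under the GFP label were alike outside the immunoglobulin genes too. For each pair, the counts of genes with at least 10 UMIs in the pair were compared by chi-square, where a value near 1 per degree of freedom is what sampling from 1 source gives. The 6 pairs gave 1.01 to 2.68 (median 1.66), and 3 of them were under 1.5. The 12 pairs of an IgA with an IgM barcode gave 2.14 to 10.4 (median 6.27), and the 3 IgM pairs 2.73 to 3.39. For comparison, 780 pairs among 40 other cells of cluster 7, where the IgA barcodes sit, ran from 1.74 to 9.89 with a median of 4.73. Over immunoglobulin and member genes the IgA pairs gave 0.364 to 1.10. Their barcode sequences differed at 9 or more of 16 bases. GFP 2, GFP 5 and GFP 6 thus differed from one another by about the sampling noise. Whether the 4 IgA barcodes are separate cells was not tested, and counted as 1 they leave 3 IgM barcodes and 1 IgA source under the GFP label. The 15 pairs of the leading 6 under the sponge label gave 2.56 to 5.58 (median 3.32), and 780 pairs among 40 other cells of cluster 9, where 5 of them sit, gave 3.20 or more with a median of 8.23. All IgA pairs under the GFP label lay below the median of their reference pairs. Reference cells were taken by total UMIs, 5000 to 8100 under the GFP label and 15000 to 40000 under the sponge label. Members, which this comparison leaves out, took 9.38% to 17.4% of UMIs in the 4 IgA barcodes and 55.0% to 64.7% in the leading 6. The leading 6 were thus compared on fewer UMIs than their reference cells. Where profiles differ this value rises with depth, so nothing is read from the lower values of the 15 pairs.

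**Figure D3:**
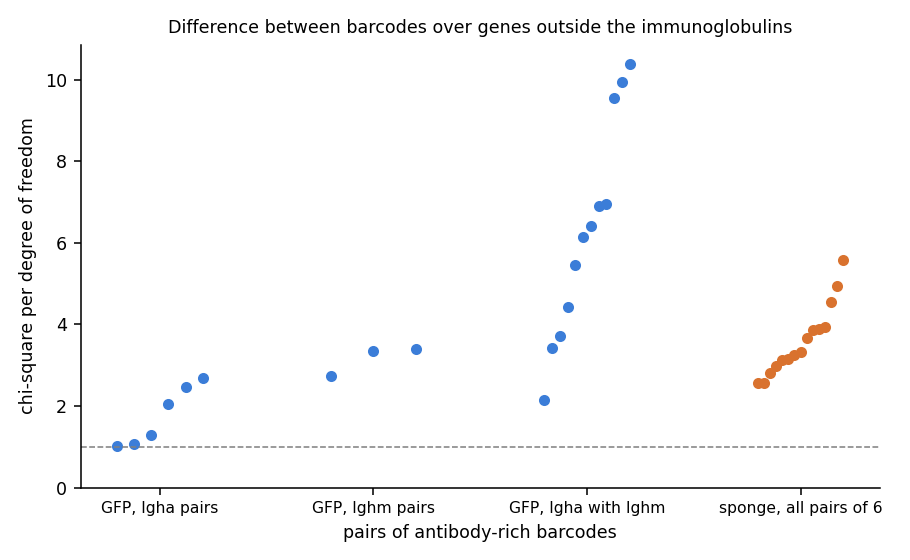
Chi-square per degree of freedom (vertical) between pairs of antibody-rich barcodes over genes outside the immunoglobulins, by kind of pair (horizontal), with 1 point per pair and the value of 1 dashed. Of the IgA pairs under the GFP label 3 lie at 1.01 to 1.28, and every other kind lies above 2.

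The clusters placed these barcodes with other cell types. Clusters were made without the 8 genes and without immunoglobulin segments. Of the leading 6 under the sponge label, 5 sat in cluster 9, which resembled microglia and macrophages and was led by C1qa and Cd74, and sponge 3 sat in the fibroblast cluster 4. Under the GFP label, GFP 1 and GFP 3 sat in cluster 9, GFP 7 in the rod cluster 0, and the 4 IgA barcodes in cluster 7, which stayed unnamed and was led by Lingo2 and Galntl6. For the barcodes in cluster 9, their own counts went against that place. Of the microglia and macrophage markers, GFP 1 and GFP 3 had 0 UMIs and the 5 sponge barcodes in cluster 9 had 0 to 3. With finer clusters 8 of the 14 moved to a cluster with T and NK cell markers, of which all 14 held 0 UMIs. Only sponge 3, the barcode in the fibroblast cluster, held fibroblast markers, 31 UMIs over 3 genes, beside its 18397 member UMIs. GFP 7, in the rod cluster, held 27 UMIs of rod markers over 7 genes. Cluster 7 has no named class to set the IgA barcodes against. By the highest marker score of the single cell, the leading 6 under the sponge label and GFP 1, GFP 3 and GFP 4 were nearest to plasma cells, GFP 2, GFP 5 and GFP 7 to B cells, GFP 6 to bipolar cells and sponge 7 to rods.

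RNA of rods was present in all of them. Rod markers had 13 to 37 UMIs per barcode under the GFP label and 12 to 26 under the sponge label, among 4 to 7 of the 8 markers. Doublet scores of the 14 were 0.0491 to 0.116, against automatic thresholds of 0.514 and 0.723 that marked no cell in either library, so doublets were not removed.

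Genes of the plasma cell programme accompanied the chains unevenly under the GFP label and more fully under the sponge label. Of 24 such genes 22 were detected in its antibody-rich barcodes, and 21 had at least 5 UMIs there and at least 2-fold the level in other cells, where 4.35% of 21266 features did. Levels here are shares of the UMIs outside the immunoglobulin genes. The median fold of the list was 39.9. Over all features the median was 0 because only 39.9% of them were detected in these barcodes, so it is no yardstick for the list. Under the GFP label 18 of 24 were detected and 8 met that rule, where 1.58% of 21369 features did, and the median fold was 7.02. These values pool 7 unlike barcodes. Detection and the limit of 5 UMIs also depend on depth, and fewer UMIs outside the immunoglobulin genes were available under the GFP label. There 17 UMIs of Xbp1 made 577 CPM, and under the sponge label 71 UMIs made 1105 CPM. Of the plasma cell markers used to name clusters, GFP 1 and GFP 3 held 16 and 10 UMIs. The IgA barcodes GFP 2, GFP 4, GFP 5 and GFP 6 held 1, 4, 0 and 2, and GFP 7 held 0. Xbp1, the transcription factor that widens the secretory route, had 6 to 19 UMIs in each of the leading 6 under the sponge label. Under the GFP label it had 9, 5, 2 and 1 UMIs in GFP 1, GFP 3, GFP 4 and GFP 6 and 0 in the rest. Prdm1, which shuts off the B cell programme, had 1 to 11 UMIs in each of those 6 and 1 UMI under the GFP label, in GFP 1. Pou2af1, a coactivator at immunoglobulin promoters, had 64.2% of all its kept-cell UMIs in the 14 barcodes.

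Secretory genes gave the largest counts. Ssr4, a subunit of the translocon-associated complex, had 32 to 68 UMIs in each of the leading 6 and 1 to 10 under the GFP label. Txndc5 and Sec11c, an oxidoreductase of the endoplasmic reticulum and a signal peptidase subunit, were at 117-fold and 41.9-fold the level of other cells under the sponge label. They were at 16.2-fold and 6.65-fold under the GFP label. Derl3 had 2 UMIs in the antibody-rich barcodes under the GFP label and 26 under the sponge label. In the same order Sdc1, the surface marker CD138, had 0 and 16. Tnfrsf17, a receptor for survival signals, had 0 and 10, with overlapping intervals of 0 to 125 CPM and 74.7 to 286 CPM. The proliferation gene Mki67 had 0 UMIs in all 14.

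B cell genes were detected about as often as other features. Of 14 such genes 4 were detected in the antibody-rich barcodes under the GFP label and 6 under the sponge label, where 34.0% and 39.9% of all features were. The rule used above was met by none under the GFP label and by 3 under the sponge label, beside 1.58% and 4.35% of all features. Cd79a, part of the antigen receptor and kept by some plasma cells, had 27, 8, 13, 40, 3 and 11 UMIs in the leading 6 and 4 in total under the GFP label. Cd79b had 17 UMIs and Ms4a1 had 5 under the sponge label. Pax5, Cd22 and Blk had 0 UMIs in the antibody-rich barcodes of both libraries.

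**Figure D4:**
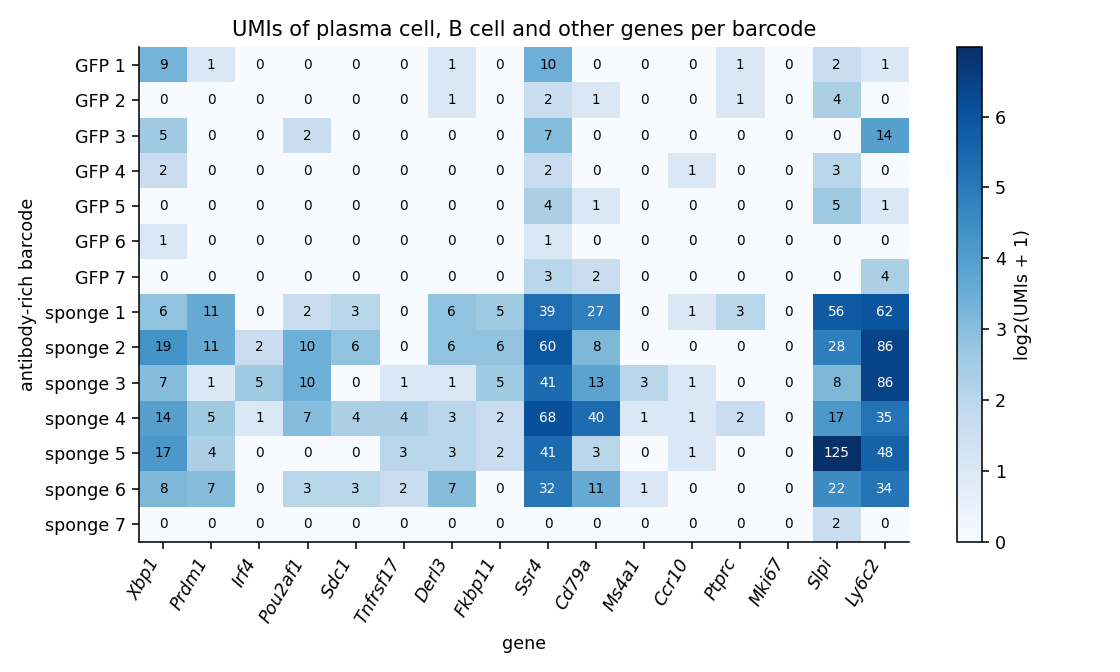
UMIs (numbers in the squares, colour as log2 of UMIs plus 1) of plasma cell, B cell and other genes (horizontal) in each antibody-rich barcode (vertical). Xbp1, Prdm1, Derl3, Ssr4 and Cd79a are counted in all of sponge 1 to 6, whereas GFP 2 and GFP 4 to 7 hold 0 to 2 UMIs of Xbp1, and Mki67 is at 0 throughout.

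Some genes outside the lists were held mainly by these 14 barcodes. Antibody-rich barcodes had 0.0782% of all kept-cell UMIs and 92.8% of the member UMIs. Among 679 genes with at least 20 UMIs in them, the highest share was that of Prg2, an eosinophil granule protein, with 94.0% (47 of 50 UMIs, 45 of them in 5 barcodes under the sponge label). Gm30211, a noncoding transcript on the same strand as Igkc whose annotation spans it (chr6:70719074-70740554), followed with 91.0% of 211 UMIs. Its reads and those of Igkc may be split by the counting. Ly6c2, a surface protein of leukocytes, had 77.0% of 482 UMIs and Slpi, a secreted protease inhibitor, 42.6% of 639. Slpi varied widely, with 8 to 125 UMIs over the leading 6. Lax1, Ly6d, Vpreb3, E330020D12Rik, Cd69 and Tg completed the 10 highest, at 7.5% to 46.7%. These shares follow from how the barcodes were chosen and carry no test.

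Survival and homing genes were detected at a similar rate, 5 of 12 in each library. The rule was met by 1 of the 12 in each, where 1.58% and 4.35% of all features met it. This was Itga4, an integrin subunit of lymphocyte homing, with 6 and 11 UMIs. Ccr10, a homing receptor of IgA plasma cells, had 1 UMI in GFP 4 and 1 in each of sponge 1, 3, 4 and 5. The ligands were counted in other cells: Cxcl12 had 7630 and 5941 UMIs there and Tnfsf13, which encodes a plasma cell survival factor, 1912 and 2546. Of 7 genes for antibody transport and Fc receptors none met the rule. Pigr had 231 and 199 UMIs, all outside the antibody-rich barcodes.

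Outside the antibody-rich barcodes the members were thinly spread. There they had 2762 UMIs in 2454 of 39278 cells under the GFP label and 5239 UMIs in 4219 of 23193 cells under the sponge label. Most of these cells, 2231 and 3504, held 1 UMI. Igkc was at 3.505 CPM (interval 3.18 to 3.85) and 17.7 CPM (interval 17.0 to 18.5), a log2 ratio of 2.34 (interval 2.19 to 2.49). Igha was at 1.35 and 4.66 CPM, with a log2 ratio of 1.78. Ighg2c had 0 and 253 UMIs, at least 78.6-fold higher against 3 counts. Igkc, Igha and Ighg2c, the light and heavy constant genes that led in antibody-rich barcodes under the sponge label, were thus also higher among its other cells. Of the 7 members 3 were at least 2-fold higher there, where 3.40% of 22912 features were, and 1, Iglc2, was lower, where 2.72% were. Jchain and Ighm differed little, with log2 ratios of -0.22 (interval -0.32 to -0.12) and 0.02 (interval -0.18 to 0.22). Yet Jchain had 10315 UMIs in the antibody-rich barcodes under the sponge label, beside 8545 of Igha and 4445 of Ighg2c. Whether the spread UMIs came from RNA free in the suspension or from the cells themselves was not tested.

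Under the sponge label Igkc in these cells followed the number of cells more than their depth. Its level under the sponge label fell from 76.6 CPM in cells of 500 to 1000 UMIs to 9.50 CPM in cells of 10000 or more. Counted per 100 cells, it was 6.48 UMIs in the former and 17.9 in the latter, although their median depths were 895 and 14245 UMIs. The corresponding values under the GFP label were 0.454 UMIs per 100 cells, from 4 UMIs, and 2.26, at median depths of 838 and 12608 UMIs. Jchain per 100 cells went from 1.02 to 15.05 under the GFP label and from 2.38 to 11.8 under the sponge label over the same range of depths.

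No class of cells was without Igkc. Under the GFP label its lowest level over 12 named classes was 1.18 CPM in ocular surface epithelium, and the median was 3.20. Its highest was 11.8 CPM in T and NK cells, from 6 UMIs in 3 of 185 cells. Under the sponge label it ran from 8.59 CPM in ocular surface epithelium to 30.6 CPM in rods, with a median of 14.4. The shallowest large cluster, cluster 1, which was led by haemoglobin genes and had a median of 1205 UMIs, stood at 64.4 CPM (interval 58.6 to 70.7). After each cell was thinned to 1000 UMIs, the share of cells with an Igkc UMI was 0.0934% to 0.680% over the classes under the GFP label. Under the sponge label it was 0.638% to 4.44%, the latter from 4 of 90 T and NK cells. In rods this share was 0.545% and 3.19%, and without thinning 0.886% and 7.30%. Igha ran from 0 to 3.93 CPM over the classes under the GFP label and from 2.71 to 8.97 CPM over those under the sponge label. The 3.93 CPM came from 2 UMIs in 1 T and NK cell.

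Under the sponge label Igha made up 10.3% of Igha plus Igkc UMIs in the antibody-rich barcodes (interval 10.1 to 10.5%) and 20.8% in all other cells (interval 19.4 to 22.3%). The share in single classes ran from 12.5% in microglia and macrophages to 24.8% in RPE. In rods it was 22.7% (interval 19.4 to 26.3%), in Müller glia 19.3% (interval 15.2 to 23.9%), and in bipolar cells 22.02% (interval 17.3 to 27.4%). These classes overlapped one another within counting error and lay above the pooled value of the antibody-rich barcodes. That value mixes unlike barcodes, and its interval does not cover the spread between them. Sponge 1, led by Igha, held 3610 UMIs of Igha beside 13231 of Igkc. Sponge 2, led by Ighg2c, held 16 beside 14996. Whether single barcodes differed from the other cells in this share was not tested. Ighg2c as a share of Ighg2c plus Igkc was 5.65% in the antibody-rich barcodes, pooled in the same way, and 9.79% in all other cells. Under the GFP label the Igha share was 17.9% (interval 16.7 to 19.1%) in the antibody-rich barcodes, where IgA and IgM barcodes are pooled. In all other cells it was 27.9% (interval 24.3 to 31.6%).

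**Figure D5:**
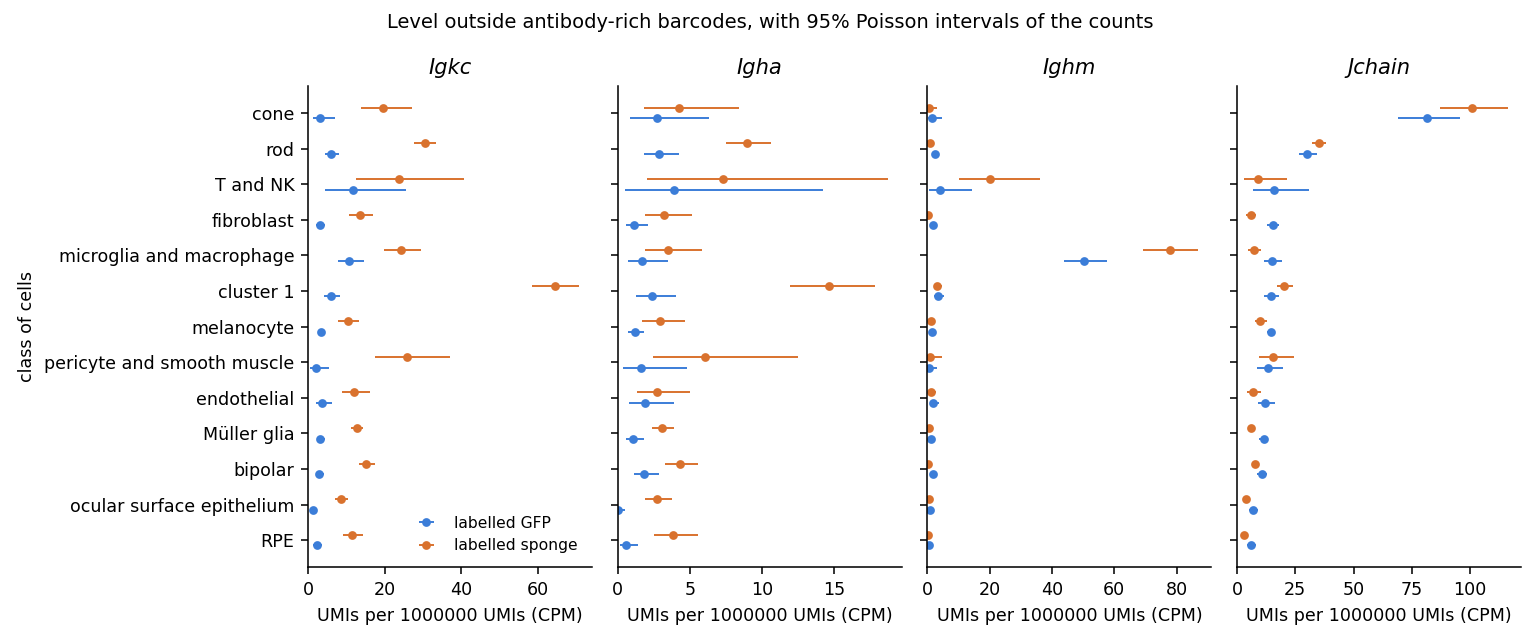
Level outside antibody-rich barcodes in CPM (horizontal) of Igkc, Igha, Ighm and Jchain (panels) in 12 named classes and cluster 1 (vertical), in the library labelled GFP (blue) and the one labelled sponge (orange), with 95% Poisson intervals as bars. Ighm stands at 50.3 and 77.7 in microglia and macrophages, Jchain at 81.7 and 101 in cones, and Igkc at 64.4 in cluster 1 under the sponge label.

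Jchain had an order of its own, with photoreceptors highest in both libraries. Cones, told by Opn1sw, Opn1mw and Arr3, had 81.7 CPM of Jchain (interval 69.2 to 95.8) under the GFP label and 101 CPM (interval 86.9 to 116) under the sponge label. Rods came second at 30.1 CPM (interval 26.4 to 34.1) and 35.1 CPM (interval 32.2 to 38.3). The other 10 named classes lay between 6.07 and 15.7 CPM and between 2.82 and 15.6 CPM, and their intervals did not reach that of cones. At 1000 UMIs per cell, 7.64% of cones held a Jchain UMI under the GFP label and 9.91% under the sponge label, against 0.963% and 0.724% of Müller glia. No cell outside the antibody-rich barcodes held more than 4 Jchain UMIs. Igkc in the same cones was 3.25 and 19.7 CPM, beside class medians of 3.20 and 14.4 CPM. Jchain was 96.2% of Jchain plus Igkc UMIs in cones under the GFP label, 83.3% in rods and 78.2% in Müller glia, against 18.1% in the antibody-rich barcodes. Under the sponge label these shares were 83.6%, 53.5%, 32.0% and 12.2%. Cones thus stood apart for Jchain and not for Igkc.

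The annotation gives no gene that overlaps Jchain among the features counted. Of its neighbours within 50000 bases, Enam, an enamel matrix gene on the other strand (chr5:88487975-88506049), had the same order, with 20.6 and 35.2 CPM in cones, 3.21 and 3.51 in rods and 1.84 and 0.775 elsewhere. Utp3, on the far side, did not, with 59.0 and 52.8 CPM in cones against 72.5 and 79.0 in rods. Rufy3, beyond it, was close in both classes, with 381 and 360 CPM in cones, 357 and 389 in rods and 220 and 145 elsewhere. By the rule for likeness, the genes whose level over 51 cluster and library units correlated best with the summed members were Scaf11 (Pearson r = 0.76), Plagl2 (0.74), Ranbp3 (0.74), Gart (0.70) and Ddx39b (0.70). Units of 1 library share depth and suspension, and 17565 genes were searched, so these values are a description.

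Ighm marked another class. In microglia and macrophages it was at 50.3 CPM (interval 43.7 to 57.6) under the GFP label and 77.7 CPM (interval 69.3 to 86.8) under the sponge label. The next class, T and NK cells, had 3.93 CPM from 2 UMIs and 20.1 CPM from 11 UMIs, and the other 10 named classes lay at 2.47 CPM or less in either library. Under the sponge label, where no antibody-rich barcode held Ighm, this class had 313 of its 423 UMIs. At 1000 UMIs per cell 4.67% (interval 3.54 to 6.04%) and 5.52% (interval 3.93 to 7.49%) of the class held an Ighm UMI, against 0.174% and 0.0892% of rods, whose median depths were 1612 and 2337 UMIs beside 3041.5 and 2829 in the class. Unthinned, the shares were 14.4% and 24.2%. The thinned intervals of both libraries overlapped.

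Most cells with Ighm in that class carried C1qa, a complement gene of microglia. Of 172 such cells under the GFP label 154 had a UMI of it, and of 171 under the sponge label 167 had one. Ms4a1, a surface protein of B cells, was counted in 2 and 2 of them, and Pax5, a B cell transcription factor, in 1 and 0. Igkc was counted in 5 and 26. At least 2 of the 8 B cell markers were found in 3 of the 172 and 17 of the 171, and in 8 of 1026 and 11 of 535 cells of the class without Ighm. The most frequent was Bank1, in 30 and 64 of the cells with Ighm and in 173 and 60 of those without. Cd22 was counted in 1 and 19 of the cells with Ighm and in 16 and 28 of those without, and Cd79b in 4 and 17 and in 3 and 9. Siglech, a lectin of microglia, was found in 41.3% and 65.5% of the cells with Ighm and in 28.9% and 26.2% of those without. Depth went with both, since cells with Ighm had a median of 3357.5 and 9584 UMIs and those without 3002.5 and 2083, and its part in these differences was not tested. With finer clusters the level was 47.4 and 85.9 CPM in cluster 14, led by Ccl4 and Cd74, and 36.9 and 31.2 CPM in cluster 28.

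B cells themselves were rare. Among kept cells that were not antibody-rich, 8 under the GFP label and 4 under the sponge label held at least 3 of the 8 B cell markers. Of these, 5 and 3 had an Ighm UMI. At least 2 markers were held by 20 and 33 such cells, which is the opposite order. Many of these lay in the microglia and macrophage class, 3 and 17 with Ighm and 8 and 11 without it. Nothing about B cells is therefore read from the order at 2 markers. The counts at either number of markers leave out sponge 3, sponge 4 and sponge 6, which held 3, 3 and 4 of the markers and 0 UMIs of Ighm. Outside the antibody-rich barcodes the remaining members were near the limit of counting. Iglc2 had 23 and 5 UMIs, Mzb1 had 27 and 22, and Ighg2b had 1 and 1. For Mzb1 the log2 ratio was -0.39 (interval -1.28 to 0.47), so no difference in either direction was detectable at this depth.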

How the data were processed

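The deposited matrices hold UMI counts per gene and cell barcode, without normalization. They were made by the authors with Cell Ranger 7.0.0 on mm10, per the submitters' processing notes; how introns and barcodes were handled is not stated. Barcodes with at least 300 genes and 500 UMIs passed if mitochondrial UMIs were at most 25%. Cells of both libraries were clustered without the 8 genes and without immunoglobulin segments (scanpy 1.11.5, 10000 UMIs per cell, 2000 variable genes, 30 components, 15 neighbours, Leiden resolution 1, leidenalg 0.10.2), which gave 27 clusters. Classes were named from marker lists. Levels are summed UMIs per 1000000 with exact Poisson intervals, and shares carry exact Clopper-Pearson intervals. Ratios add 0.5 to both counts and were formed for features with at least 20 UMIs over both libraries, with the exact binomial interval of the 2 counts. These cover counting error only, and no p-value was computed with 1 library per group. Thinning drew 1000 UMIs per cell and left out 881 and 1220 shallower cells. Genes were matched to GENCODE M21 by Ensembl ID, and all 8 matched. Named genes are all members, genes of the fixed lists and up to 10 genes most concentrated in antibody-rich barcodes. Not every gene of the lists is reported here by name. The members and lists were chosen with earlier results of these data known. The calculations were checked on simulated data.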

Additional observations from a re-analysis of the deposited data

How the results depend on the processing

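Member levels and ratios, the number, class and chains of antibody-rich barcodes, the percentage outside them and the class values of Igkc, Jchain and Ighm were recomputed, one choice at a time. The pair comparisons, gene lists, variable segments, chain shares, B cell counts and depth bins were not. The number of antibody-rich barcodes stayed at 7 in the library labelled GFP and at 6 to 8 in the library labelled sponge, and each had 1 leading heavy constant gene at a limit of 60% as at 80%. The summed members stood at 68.3 and 784 CPM. With a stricter filter (500 genes, 1000 UMIs, 10% mitochondrial) they were at 98.5 and 940 CPM, the log2 ratio moved from 3.52 to 3.25, the percentage outside antibody-rich barcodes to 19.6 and 3.60, and the barcodes that hold 90% in the library labelled GFP to 509. Without the 10% of cells with the highest doublet scores the values were 74.4 and 884 CPM, a log2 ratio of 3.57, and 30.1% and 4.51% outside. Without the antibody-rich barcodes they were 22.5 and 39.8 CPM and a log2 ratio of 0.82. Without the barcode with the most member UMIs in each library they were 57.3 and 639 CPM and a log2 ratio of 3.48. With cells weighted equally they were 56.3 and 229 CPM and a log2 ratio of 2.02, and Ighm in microglia and macrophages of the library labelled sponge was at 61.2 CPM. Single members changed direction. Without the antibody-rich barcodes the log2 ratio of Ighm was 0.0197, of Iglc2 -2.20, of Jchain -0.22 and of Mzb1 -0.39, and with cells weighted equally (nothing added) that of Iglc2 was -0.50. The antibody-rich barcodes in the microglia and macrophage class numbered 2 and 5, and 0 and 0 both at resolution 2 and by the highest marker score of the cell. Thinned to 500 UMIs, the share of cells with the gene was 3.17% and 1.70% for Ighm in microglia and macrophages, 3.47% and 4.70% for Jchain in cones, 1.48% and 1.68% for Jchain in rods, and 0.253% and 1.503% for Igkc in rods. Without thinning these were 14.4% and 24.2%, 14.8% and 29.98%, 4.87% and 7.97%, and 0.886% and 7.30%. Fewer UMIs per cell leave fewer cells with a count by construction, and the cause of the other changes was not tested. No paired analysis was possible because each group holds 1 library. Depth limits Ighg2b, and Iglc2 and Mzb1 outside antibody-rich barcodes, to 27 UMIs or fewer per library.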
